A study of Mus musculus with 4 samples.

Results

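The 8 genes described here make sterols or hold their synthesis in check: Hmgcs1, Idi1, Fdps, Fdft1, Sqle, Cyp51, Msmo1 and Insig1. They were chosen by name out of the 32285 genes counted in whole lungs of GAL mice, which carry an edited Galt gene, and of WT (wild-type) mice, and all 8 were found in every library. The study had 2 GAL and 2 WT libraries of single cells, taken into droplets after the lungs were washed free of blood, cut up and treated with collagenase IV and DNase I. Galt codes for an enzyme of galactose breakdown. The labels used here give neither the kind of edit nor the strain, age or sex of the mice, nor how animals map to libraries. P-values of GAL against WT therefore measure the spread between these libraries only. Tests between kinds of cells use the spread over sums of cells taken from the same libraries. Levels are given first across the cell types of the lung and then in GAL against WT.

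Cells make cholesterol from acetyl-CoA in the mevalonate pathway, which passes through isoprenoids and squalene before the sterol rings form. When sterols in the endoplasmic reticulum run low, the carrier SCAP takes SREBP transcription factors to the Golgi, where proteases free the part that enters the nucleus and turns on the genes of sterol synthesis and uptake. INSIG proteins hold SCAP back when sterols are plentiful, and Insig1 is itself an SREBP target. In the lung, alveolar macrophages are known for taking up and clearing the lipids of surfactant.

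SREBP binds sterol regulatory elements in promoters next to boxes for the factors NF-Y and Sp1, so these promoters are shown. RefSeq promoter windows on GRCm38.p6 were matched for 5 of the 8 genes (Hmgcs1, Idi1, Cyp51, Msmo1 and Insig1) and not for Fdps, Fdft1 and Sqle. All 5 held an NF-Y box (CCAAT on either strand) in the 250 bases before the RefSeq start, against 37.5% of 27025 genes. All 5 held an Sp1 box (GGGCGG on either strand), against 35.4% of genes. The element TCACNCCAC, on either strand, was found in Hmgcs1 only, 137 bases before its start, against 1.22% of genes, and an E-box (CACGTG) in Insig1 only, against 6.86%. For each member 1 window was read, while a gene counted in these shares if any of its windows held the motif. Over all 32851 windows the shares were 33.8% for the NF-Y box, 32.7% for the Sp1 box, 1.05% for the element and 6.02% for the E-box. A match is a match of letters and was not tested as a binding site.
Capitals mark NF-Y boxes, and in Hmgcs1 also the element TCACCCCAC. The Hmgcs1 window is chr13:119690101-119690350 on the plus strand, and the Insig1 window is chr5:28071162-28071362 on the plus strand, which ends at the GENCODE gene start. For Idi1, Cyp51 and Msmo1 the box nearest the start is shown with 8 bases on each side, at chr13:8885584-8885604 (plus), chr5:4104714-4104734 (minus) and chr8:64733621-64733641 (minus). All NF-Y boxes of these genes lie before the RefSeq start but inside the gene as GENCODE places it.
Hmgcs1 promoter: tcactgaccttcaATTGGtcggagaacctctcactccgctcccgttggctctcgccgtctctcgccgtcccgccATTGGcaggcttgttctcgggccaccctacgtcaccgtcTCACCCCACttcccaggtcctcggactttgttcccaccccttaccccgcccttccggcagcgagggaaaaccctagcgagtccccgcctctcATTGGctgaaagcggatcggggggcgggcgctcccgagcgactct
Insig1 promoter: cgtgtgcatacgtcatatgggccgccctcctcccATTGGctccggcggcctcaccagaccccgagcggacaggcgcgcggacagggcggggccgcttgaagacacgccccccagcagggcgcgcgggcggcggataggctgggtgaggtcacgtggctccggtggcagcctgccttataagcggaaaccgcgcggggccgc
Idi1 site: aaggtgccATTGGctggcgac
Cyp51 site: gtccgccaCCAATctggtcct
Msmo1 site: ggggcggaCCAATtacgacag

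The libraries held 56218178 to 62406681 UMIs (counted RNA molecules). After filters on depth, mitochondrial UMIs and doublets, 10967 and 10757 cells remained in the GAL libraries, with medians of 3713 and 2842 UMIs per cell, and 12441 and 13515 cells in the WT libraries, with a median of 2361 in each. Pairs of libraries shared 107 to 149 cell barcodes. Galt itself had 13.3 and 10.6 CPM in GAL and 11.5 and 11.3 CPM in WT; where the edit lies is not stated, so this checks nothing about the genotype. Cells were gated into types by marker lists that hold none of the 8 genes, and each gate is called "like" its type. Of 32 types listed, 19 had at least 30 cells in every library and were tested, and 18.1% to 25.5% of cells fell in no gate. Levels are given as CPM, the UMIs of a gene scaled to a fixed total of 1000000 UMIs of a gate in a library. They are compared within a gene only, since the length of the counted fragment was not considered.

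By the median of the 8 genes, sterol synthesis genes stood highest, among the 19 tested types, in 3 myeloid gates. In migratory dendritic-like cells, the antigen-presenting cells that leave the lung for lymph nodes, all 8 genes were higher than the mean of the other 18 types, with a median log2 difference of 2.52. In alveolar macrophage-like cells all 8 were higher, with a median of 1.45, and in nonclassical monocyte-like cells, the monocytes that patrol vessels, 7 of 8 were higher, with a median of 1.22. The test was edgeR's quasi-likelihood test with library as a block and an adjusted p under 0.05 over all genes of a type. Its p-values rest on the spread over the sums of all tested types in the same few libraries, and not on the number of animals. Of all 13111 genes tested, 21.8% were called higher in migratory dendritic-like cells, 40.9% in alveolar macrophage-like cells and 19.4% in nonclassical monocyte-like cells. The medians over all genes in these gates were -0.18, 0.11 and -0.19.

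Alveolar type 2-like cells, the cells that make surfactant, had too few cells in GAL replicate 2 to be tested, with 301 and 14 cells in GAL and 58 and 45 cells in WT. Their levels were high all the same. Fdps held 204 and 99.9 CPM in GAL and 184 and 184 CPM in WT, and Insig1 held 138 and 69.9 CPM in GAL and 148 and 198 CPM in WT, where GAL replicate 2 rests on 10 and 7 UMIs. The mean of 4 libraries lay above that of the highest tested type for 5 of the 8 genes: Hmgcs1 (161 CPM), Fdps (168), Fdft1 (66.8), Msmo1 (88.4) and Insig1 (138). For none of the 8 did all 4 libraries lie above all 4 of that type. The orders given from here on cover the 19 tested types only.

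**Figure D1:**
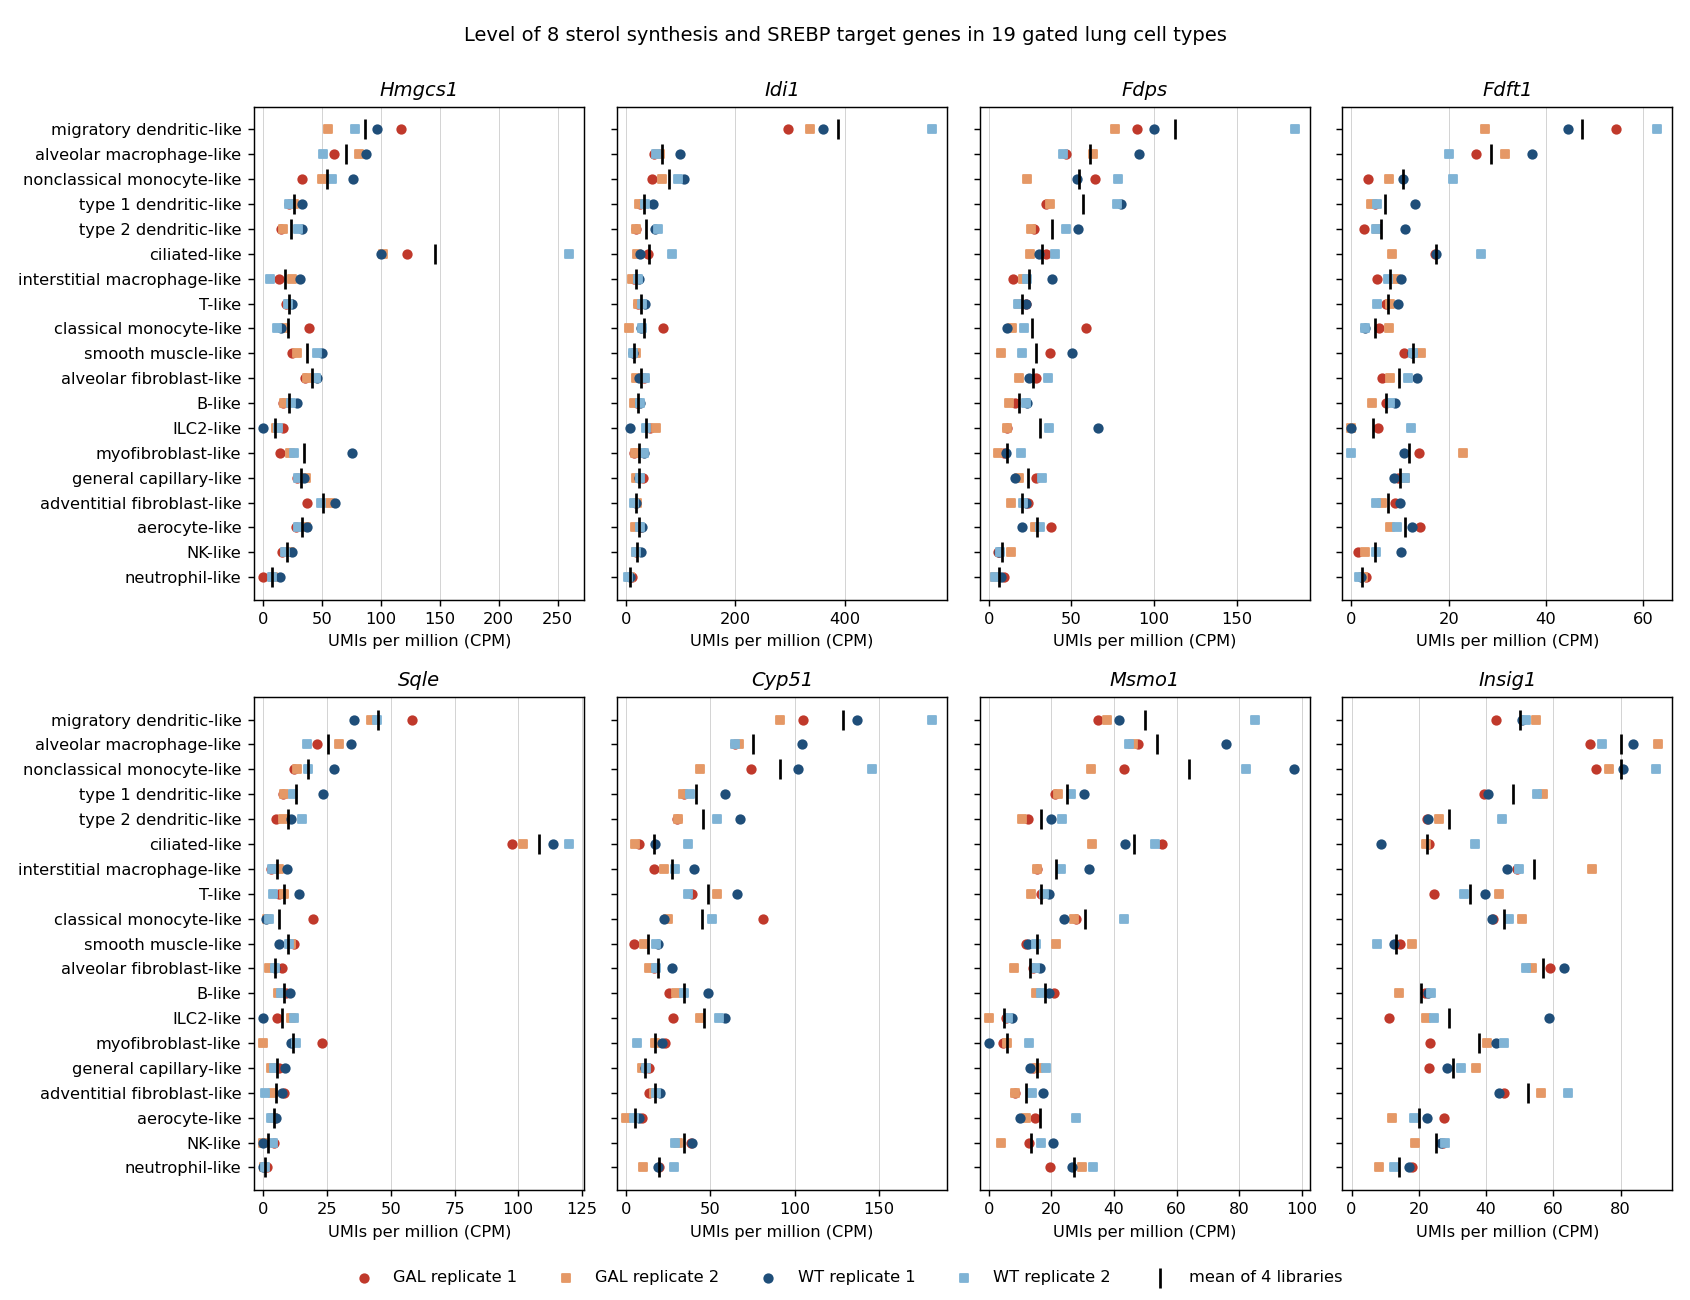
Level of each gene in CPM (x axis) in 19 gated types (y axis, ordered by the median log2 difference of the 8 genes); red and orange points are GAL libraries, blue points WT libraries, and the bar is the mean of 4 libraries. Idi1 in migratory dendritic-like cells, at 296 to 559 CPM, stands apart from every other type plotted, and Sqle does so in ciliated-like cells.

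Early in the pathway, Hmgcs1 makes HMG-CoA from acetyl-CoA units. The gene (ENSMUSG00000093930) lies at chr13:119690379-119708260 on the plus strand of GRCm38. Among tested types it was highest in ciliated-like cells, the airway cells that move mucus, with 122 and 102 CPM in GAL and 100.4 and 260 CPM in WT. Next came migratory dendritic-like cells, with 117 and 54.8 CPM in GAL and 96.7 and 77.7 CPM in WT, and then alveolar macrophage-like cells, with 59.8 and 81.6 CPM in GAL and 87.7 and 50.6 CPM in WT. These ranges overlap, and no neighbours in the order of 19 types lay apart in all 4 libraries. Hmgcs1 was also higher in adventitial fibroblast-like cells, at 51.1 ± 10.6 CPM (SD, n = 4 libraries), by 0.58 ± 0.16 on the log2 scale (SE; edgeR adjusted p = 0.00134). It was lowest in neutrophil-like cells, at 7.41 ± 5.84 CPM.

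Idi1, which turns isopentenyl diphosphate into the isomer that starts isoprenoid chains, stood out in 1 type. The gene (ENSMUSG00000058258) lies at chr13:8885501-8892451 on the plus strand. Migratory dendritic-like cells held 296 and 337 CPM in GAL and 359 and 559 CPM in WT. The next type, nonclassical monocyte-like, held 46.7 and 65.1 CPM in GAL and 106 and 94.7 CPM in WT. All 4 libraries of the first type lay above all 4 of the second, and the log2 difference from the mean of the other types was 4.21 ± 0.14 (edgeR adjusted p = 9.1e-42). The level in the highest type was 52.7 times that in the lowest, neutrophil-like.

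Fdps makes farnesyl diphosphate, from which protein prenylation and squalene both branch. The gene (ENSMUSG00000059743) lies at chr3:89093588-89101959 on the minus strand. Among tested types it was highest in migratory dendritic-like cells at 113 ± 49.2 CPM, then in alveolar macrophage-like cells at 61.3 ± 21.2 CPM and type 1 dendritic-like cells, which take up dead cells and present their antigens, at 57.2 ± 24.9 CPM (SD, n = 4 libraries). The log2 differences of these 3 types were 2.48, 1.39 and 1.40, and all passed the test. NK-like cells, at 8.05 ± 3.66 CPM, and neutrophil-like cells, at 6.06 ± 2.64 CPM, were lowest. Fdft1, squalene synthase, takes farnesyl diphosphate into the sterol branch (ENSMUSG00000021273, chr14:63145150-63179578, minus strand). It held 54.5 and 27.4 CPM in GAL and 44.6 and 62.9 CPM in WT in migratory dendritic-like cells and 28.6 ± 7.32 CPM in alveolar macrophage-like cells. It passed as higher in these 2 types only, and no neighbours in the order of either gene lay apart.

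Sqle, squalene epoxidase, adds the oxygen that ring closure needs (ENSMUSG00000022351, chr15:59315077-59331192, plus strand). Ciliated-like cells held 97.5 and 102 CPM in GAL and 113 and 120 CPM in WT, above all 4 libraries of the next type, migratory dendritic-like, at 58.4 and 42.2 CPM in GAL and 35.7 and 44.4 CPM in WT. The log2 difference in ciliated-like cells was 3.47, the largest of the 8 genes in that type. Neutrophil-like cells held 3 Sqle UMIs in all, and the ratio of highest to lowest mean, 157, rests on them.

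Cyp51 removes a methyl group from lanosterol, the first sterol, and Msmo1 works on the methyl groups that remain. Cyp51 (ENSMUSG00000001467) lies at chr5:4081145-4104746 and Msmo1 (ENSMUSG00000031604) at chr8:64718139-64733792, both on the minus strand. Cyp51 was highest in migratory dendritic-like cells at 129 ± 39.97 CPM, nonclassical monocyte-like cells at 91.5 ± 43.2 CPM and alveolar macrophage-like cells at 75.3 ± 19.3 CPM. Unlike Hmgcs1 and Sqle it was lower in ciliated-like cells, by 1.37 on the log2 scale, and it was lowest in aerocyte-like cells, the capillary cells of gas exchange, at 5.39 ± 4.09 CPM. It was also called higher in T-like cells, at 48.9 ± 13.7 CPM (log2 difference 0.94). Msmo1 was, among tested types, highest in nonclassical monocyte-like cells, at 63.9 ± 31.0 CPM, and alveolar macrophage-like cells, at 53.6 ± 14.8 CPM. In neutrophil-like cells Msmo1 was higher, at 27.3 ± 5.91 CPM with a log2 difference of 1.54, while 6 other members were lower. TMM scaling factors there ran from 0.447 to 0.581, the lowest of all types, and with no scaling beyond totals Msmo1 stood at 0.56 and Cyp51 was also lower (-0.70, edgeR adjusted p = 0.00674, against 0.27 with TMM), which made 7 lower.

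Insig1, the brake on the pathway, had the smallest ratio between its highest and lowest tested type, 6.11 (ENSMUSG00000045294, chr5:28071363-28078662, plus strand). Alveolar macrophage-like cells held 71.0 and 91.2 CPM in GAL and 83.7 and 74.6 CPM in WT, and nonclassical monocyte-like cells 72.6 and 76.5 CPM in GAL and 80.7 and 90.5 CPM in WT. These types did not lie apart from each other, but nonclassical monocyte-like cells lay above all 4 libraries of the next type, alveolar fibroblast-like, at 56.9 ± 5.16 CPM. Insig1 was also called higher in interstitial macrophage-like, classical monocyte-like, type 1 dendritic-like and both kinds of fibroblast-like cells.

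With TMM scaling, NK-like, neutrophil-like, endothelial and adventitial fibroblast-like gates had the most members called lower. In NK-like cells 7 of 8 members were lower than the mean of the other types, against 17.5% of all genes, and in neutrophil-like cells 6 of 8, against 23.4%. B-like cells had 4 lower, against 19.8%, ILC2-like cells 2, against 11.4%, and T-like cells 0, against 17.2%. In general capillary-like cells 6 were lower, against 19.8%, and in aerocyte-like cells 5, against 18.2%. Adventitial fibroblast-like cells had 5 lower and 2 higher, with a median of -0.69 against 0.021 over all genes. The shares of all genes called in that gate are not given, so its counts are a description. The endothelial and adventitial fibroblast-like counts depended on the scaling. With none beyond totals 2 were lower in general capillary-like cells (Sqle and Cyp51) and 2 in aerocyte-like cells (Cyp51 and Insig1). Adventitial fibroblast-like cells then had 3 lower and B-like cells 4. Shares of all genes called with no scaling are not given, so these counts too are a description. In ciliated-like cells 3 of 8 members (Hmgcs1, Sqle and Msmo1) were higher, against 31.4% of all genes. Cyp51 and Insig1, 2 of 8, were lower there, against 22.9%. Both counts lie near the shares of all genes, so they mark nothing particular to the members as a set. With no scaling beyond totals Fdft1 was also higher in ciliated-like cells and Insig1 was not called (-0.58, edgeR adjusted p = 0.0544). Over the 19 types the log2 mean levels of pairs of members had Pearson's r from 0.09 (Hmgcs1 and Cyp51) to 0.85 (Hmgcs1 and Fdft1), with a median of 0.52; all types share the same 4 libraries, so this is a description.

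Other genes of the pathway followed in part. Of all 13111 genes, 40.9% were called higher in alveolar macrophage-like, 21.8% in migratory dendritic-like and 19.4% in nonclassical monocyte-like cells. Of 13 further mevalonate and sterol enzymes tested, 10 were higher and 2 lower in alveolar macrophage-like cells, and 9 were higher and 1 lower in migratory dendritic-like cells, while in nonclassical monocyte-like cells 4 were higher and 1 lower. Mvd, which makes isopentenyl diphosphate, was higher by 3.74 in alveolar macrophage-like cells and by 2.83 in migratory dendritic-like cells on the log2 scale. Lbr, which also serves as a nuclear envelope protein, was lower by 2.86 and by 1.95 in the same 2 types. Of 11 genes of sterol uptake and transport, 8 were higher and 1 lower in alveolar macrophage-like cells, 6 were higher and 2 lower in migratory dendritic-like cells, and 6 were higher and 1 lower in nonclassical monocyte-like cells. Of the 12 genes of LXR, the receptor that answers to oxidised sterols, and of sterol efflux, 8 were higher and 1 lower in alveolar macrophage-like cells, 4 were higher and 3 lower in migratory dendritic-like cells, and 9 were higher and 0 lower in nonclassical monocyte-like cells. Interstitial macrophage-like cells, where 1 member was higher and 2 were lower, had 7 uptake genes and 8 LXR and efflux genes higher and 0 of either lower. The medians of these 2 lists there were 1.07 and 1.35, against 0.096 over all genes. The share of all genes called in that gate, and the shares called lower in the other gates, are not given, so these counts are a description. These lists, too, were set with earlier results of these data known.

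The genes whose pattern over the 19 types was most like that of the members were found among 6236 genes with a mean of at least 20 CPM, by the mean Pearson's r with the 8. They were Ddhd1 (0.63), Fibp (0.60), Snd1 (0.60), Kpna3 (0.60), Psma6 (0.60), Ghitm (0.58), Mrpl14 (0.58), Tmem131 (0.58), Gsto1 (0.57) and Avpi1 (0.56). Srebf2, the gene of the SREBP that drives sterol synthesis, came next at 0.56. The median over all genes compared was 0.0082.

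In the whole lung the 8 genes had lower means in GAL than in WT, but none passed the test, and WT replicate 1 was the highest library for all 8. Cyp51 had 33.1 and 40.1 CPM in GAL and 71.0 and 46.4 CPM in WT, a log2 fold change of -0.71 ± 0.30 (SE; edgeR adjusted p = 0.716). Msmo1 had 25.0 and 23.8 CPM in GAL and 43.9 and 30.9 CPM in WT (-0.65 ± 0.24), and Idi1 had 36.6 and 36.5 CPM in GAL and 67.6 and 42.1 CPM in WT (-0.62 ± 0.29). For these 3 genes both GAL libraries lay below both WT libraries, as they did for 16.4% of all 16831 genes tested. For the other 5 the groups overlapped.

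All 8 log2 fold changes were negative, with a median of -0.38 against 0.0085 over all genes. Without WT replicate 1 the median was 0.034, and without WT replicate 2 it was -0.81. By edgeR 0 of 8 members were called, against 0% of all genes, and 1 (Msmo1) had an unadjusted p under 0.05; DESeq2 called 0 members and 42 genes in all, 0.289% of those it tested. The whole-lung sum cannot tell fewer cells of a type from less RNA per cell. Alveolar macrophage-like cells made up 10.4% and 11.5% of GAL cells and 15.9% and 12.1% of WT cells, and migratory dendritic-like cells 0.319% and 0.967% of GAL cells and 1.71% and 0.252% of WT cells, so WT replicate 1 held the largest share of both. Alveolar type 2-like cells made up 2.74% and 0.130% of GAL cells and 0.466% and 0.333% of WT cells, and held 2054970 UMIs in GAL replicate 1. In a fit added after this was seen, without the alveolar type 2-like cells, the median of the 8 was -0.47, and Fdps too had both GAL libraries below both WT libraries, with 31.9 and 32.2 CPM in GAL and 57.9 and 33.8 CPM in WT. The summed CPM of the 8 alveolar macrophage markers was 2915 and 6648 in GAL and 11745 and 4246 in WT. Their part in the result was not tested.

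**Figure D2:**
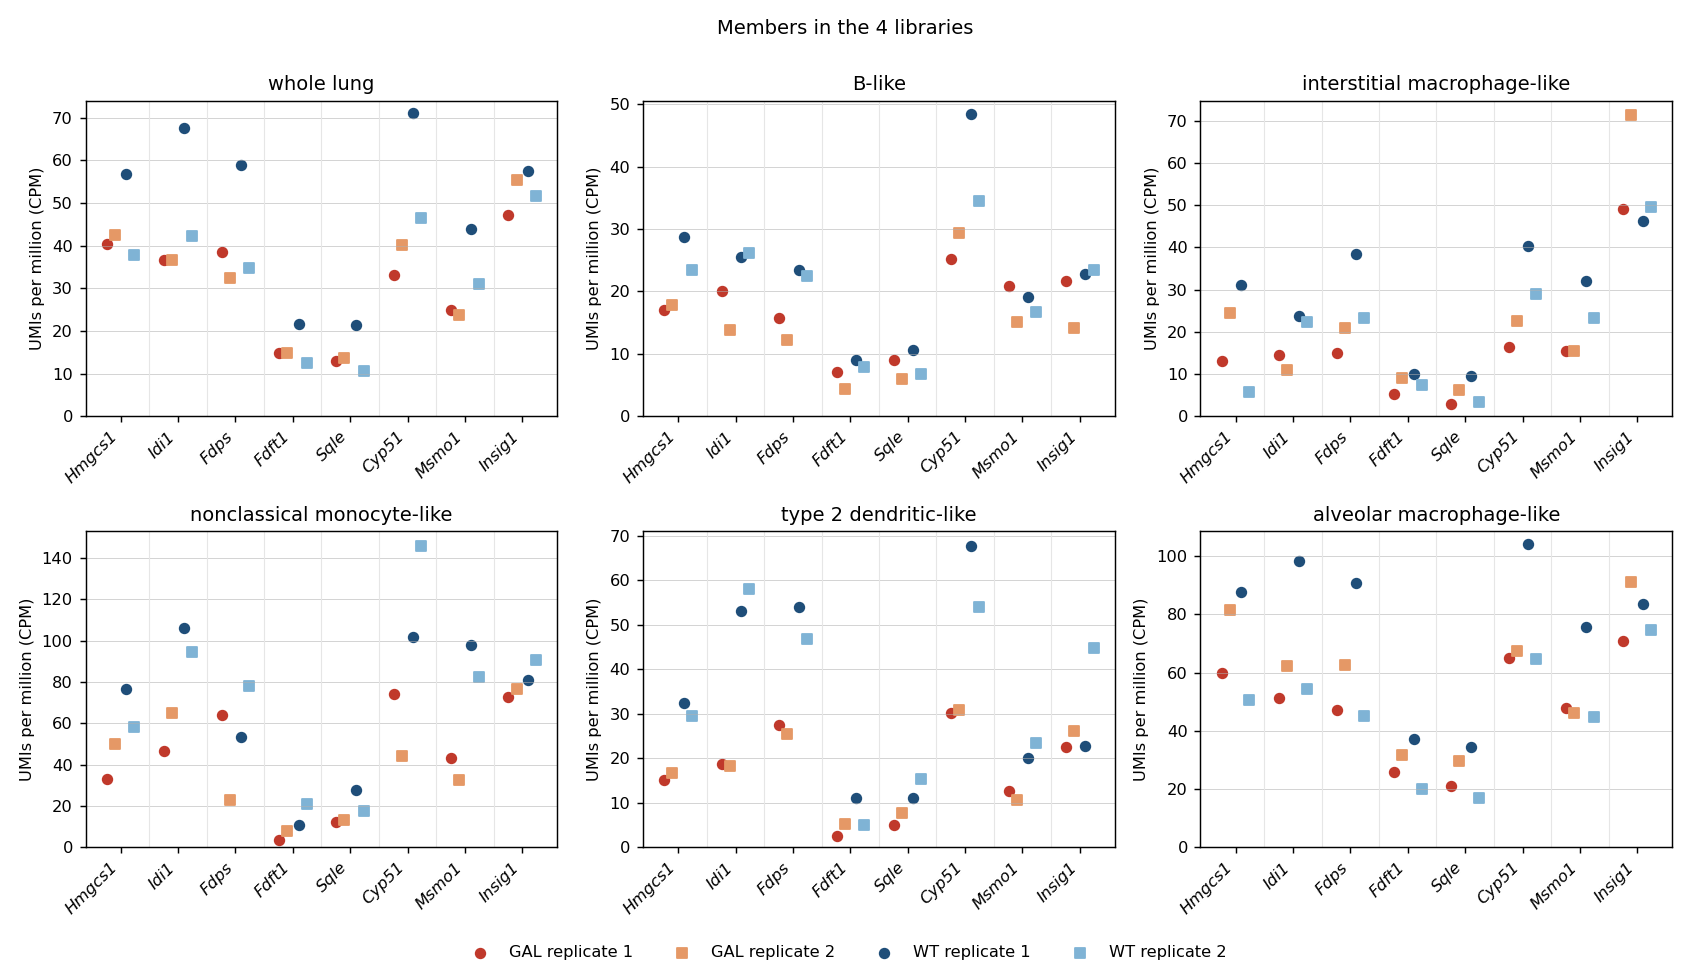
Level of each gene (x axis) in CPM (y axis) in each library, in the whole lung and 5 gates; GAL libraries are red and orange, WT libraries dark and light blue. In type 2 dendritic-like cells the GAL points lie below the WT points for 6 genes, while in alveolar macrophage-like cells they overlap for all 8.

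Within gates, the lowest values of GAL against WT were in type 2 dendritic-like cells, the dendritic cells that prime helper T cells. Idi1 had 18.8 and 18.3 CPM in GAL (15 and 31 UMIs) and 53.2 and 58.1 CPM in WT (77 and 57 UMIs), a log2 fold change of -1.51 ± 0.30 (unadjusted p = 0.000658, edgeR adjusted p = 0.9997). Cyp51 had 30.1 and 30.8 CPM in GAL and 67.7 and 54.0 CPM in WT (-0.93 ± 0.27), and Fdps had 27.6 and 25.5 CPM in GAL and 53.9 and 46.9 CPM in WT (-0.86 ± 0.28). Hmgcs1 had 15.0 and 16.6 CPM in GAL and 32.5 and 29.6 CPM in WT (-0.88 ± 0.32). The GAL and WT libraries did not overlap for any of these 4.

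Of the 7 members with enough counts to test in this gate, 7 were negative with a median of -0.87, and 6 had both GAL libraries below both WT libraries, against 17.1% of all 6838 genes tested; Fdft1 was not tested. Those 7 passed a filter on counts, so their number is a description. By edgeR no gene was called (0% of all, 0 members), while 4 members reached an unadjusted p under 0.05; DESeq2 called 0 members and 1 gene, 0.0146% of all. Idi1 stood at -1.65 without WT replicate 1 and at -1.35 without WT replicate 2. With no filter on low counts Idi1 was called (edgeR adjusted p = 0.0315), 1 of 21 genes called among 15088 tested. Summed markers of alveolar macrophages were 129 and 284 CPM in GAL and 503 and 157 CPM in WT here, and those of dividing cells 687 and 467 CPM in GAL and 903 and 308 CPM in WT, and the groups overlapped for both sums. Without dividing cells the median was -0.96.

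In type 1 dendritic-like cells 5 of the 7 members tested also had lower values in both GAL libraries than in both WT libraries. They were Idi1, Fdps, Sqle, Cyp51 and Msmo1. The 7 passed a filter on counts, so their number is a description. Fdft1, at 4.80 and 4.10 CPM in GAL and 13.2 and 5.24 CPM in WT, was not tested. Fdps had 34.6 and 36.9 CPM in GAL and 80.2 and 77.3 CPM in WT (-1.09 ± 0.23, edgeR adjusted p = 0.63), Idi1 had 25.0 and 22.8 CPM in GAL and 49.7 and 35.4 CPM in WT (-0.83 ± 0.28), and Sqle had 7.68 and 8.20 CPM in GAL and 23.3 and 11.8 CPM in WT (-1.18 ± 0.44). These 5 were among 7 members tested, against 20.8% of all genes, and 0 were called by edgeR or DESeq2, against 0% of all genes by each, with 3 at an unadjusted p under 0.05. Fdps stood at -1.11 without WT replicate 2. With no filter on low counts Fdps was called (edgeR adjusted p = 0.0249), 1 of 79 genes called among 15279 tested. The median over the members tested was -0.50, and it was -0.23 without WT replicate 1. In this gate all 11 dividing markers also had both GAL libraries below both WT libraries, with a median of -1.38, and their summed CPM was 321 and 699 in GAL and 1280 and 1168 in WT. Without the cells that passed the dividing gate, Fdps stood at -1.04 and the median of the members tested at -0.67. Summed alveolar macrophage markers were 193 and 186 CPM in GAL and 438 and 236 CPM in WT, and their part in the result was not tested.

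In nonclassical monocyte-like cells Msmo1 had 43.2 and 32.5 CPM in GAL and 97.7 and 82.2 CPM in WT, a log2 fold change of -1.11 ± 0.30 (edgeR adjusted p = 0.148), the lowest adjusted p of any member in any gate. Cyp51 had 74.3 and 44.0 CPM in GAL and 102 and 146 CPM in WT (-0.97 ± 0.31), and Idi1 had 46.7 and 65.1 CPM in GAL and 106 and 94.7 CPM in WT (-0.72 ± 0.30). Of 6 members tested 5 lay apart below, against 27% of all genes, with a median of -0.64. Those 6 passed a filter on counts, so their number is a description. By edgeR 23 genes were called in this gate, 0.431% of those tested, and 0 of them were members, 3 of which had an unadjusted p under 0.05; DESeq2 called 22 genes, 0.865% of those it tested, and 0 members. The called genes with the largest rise were Mir155hg (4.62), Spic (3.94) and Tnfsf9 (3.24). Without GAL replicate 1, Fdps stood at -1.43, Cyp51 at -1.40 and Msmo1 at -1.33. Without WT replicate 1, Cyp51 stood at -1.18. Summed alveolar macrophage markers were 154 and 586 CPM in GAL and 645 and 273 CPM in WT.

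In migratory dendritic-like cells, the tested type with the highest levels by the median of the members, the median log2 fold change was -0.49 and 4 of 8 lay apart below, against 14.5%. Idi1 had 296 and 337 CPM in GAL and 359 and 559 CPM in WT there (-0.51 ± 0.28), and Cyp51 had 105 and 91.3 CPM in GAL and 137 and 181 CPM in WT (-0.68 ± 0.30). The Hmgcs1, Fdft1, Sqle and Insig1 values of the groups overlapped. By edgeR and by DESeq2 0 members were called, against 0% of all genes by each, with 1 at an unadjusted p under 0.05 by edgeR. Without WT replicate 2 the median was -0.21 and without WT replicate 1 it was -0.79.

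Among the gates with more cells, B-like cells had 6 of 8 members apart below, against 17% of all genes, with a median of -0.52. Fdps had 15.8 and 12.2 CPM in GAL and 23.4 and 22.5 CPM in WT (-0.67 ± 0.27), and Cyp51 had 25.3 and 29.4 CPM in GAL and 48.4 and 34.4 CPM in WT (-0.53 ± 0.26). Msmo1 and Sqle overlapped between the groups. Summed alveolar macrophage markers in the B-like gate were 151 and 300.1 CPM in GAL and 564 and 163 CPM in WT, and their part in the result was not tested. The median was -0.28 without GAL replicate 2 and -0.33 without WT replicate 1.

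Interstitial macrophage-like cells, which lie between alveoli and vessels, had 4 of 8 members apart below, against 17.4%, with a median of -0.64. Idi1 had 14.5 and 10.9 CPM in GAL and 23.8 and 22.3 CPM in WT (-0.85 ± 0.28), and Msmo1 had 15.4 and 15.6 CPM in GAL and 32.0 and 23.2 CPM in WT (-0.81 ± 0.28). Insig1 was the member on the other side, with 49.2 and 71.4 CPM in GAL and 46.3 and 49.7 CPM in WT (0.39 ± 0.26). The median was -0.33 without GAL replicate 1 and -0.13 without WT replicate 1, and summed alveolar macrophage markers were 114 and 422 CPM in GAL and 684 and 132 CPM in WT. In T-like cells the median was -0.13 and 2 of 8 lay apart below, against 11.2%; Idi1 had 21.1 and 21.7 CPM in GAL and 34.5 and 28.8 CPM in WT (-0.56 ± 0.21). Without WT replicate 1 the T-like median was 0.047, and summed dividing markers there were 326 and 557 CPM in GAL and 930.5 and 282 CPM in WT.

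Alveolar macrophage-like cells had 0 of 8 members apart, against 11.3% of all genes above and 16.6% below, and a median of -0.10. Cyp51 had 64.9 and 67.3 CPM in GAL and 104 and 64.8 CPM in WT, and Fdps had 47.0 and 62.7 CPM in GAL and 90.8 and 44.9 CPM in WT. WT replicate 1 was the highest library for 7 of the 8 genes, and the median was 0.32 without WT replicate 1, 0.17 without GAL replicate 1 and -0.52 without WT replicate 2. General capillary-like cells had 0 of 8 apart, against 13.7% above and 16.3% below, and a median of -0.0054. In classical monocyte-like cells 5 of 6 members tested were positive, with a median of 0.25; Hmgcs1 had 39.2 and 18.2 CPM in GAL and 14.9 and 11.5 CPM in WT (1.03 ± 0.45, edgeR adjusted p = 0.516), and it was the 1 member apart above, against 15.9%. The GAL libraries of this gate differed: Idi1 stood at -2.29 without GAL replicate 1 and Fdps at 1.78 without GAL replicate 2. In the 2 GAL libraries Idi1 had 67.1 and 5.20 CPM and Fdps had 58.8 and 14.3 CPM. By edgeR 24 genes, 0.364% of those tested, and 0 members were called there, with the largest rises in Il10 (3.71), Mir155hg (3.71) and Mki67 (3.21). In ciliated-like cells Hmgcs1 had 122 and 102 CPM in GAL and 100.4 and 260 CPM in WT (-0.69 ± 0.31). It stood at -1.15 without WT replicate 1. Over the other gates the medians ran from -0.45 (smooth muscle-like, 2 members tested) to 0.091 (aerocyte-like, 4 tested), and in ILC2-like and myofibroblast-like cells no member had enough counts. Over all 19 gates edgeR called 0 members, against 0.0381% of all pairs of gene and gate tested.

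**Figure D3:**
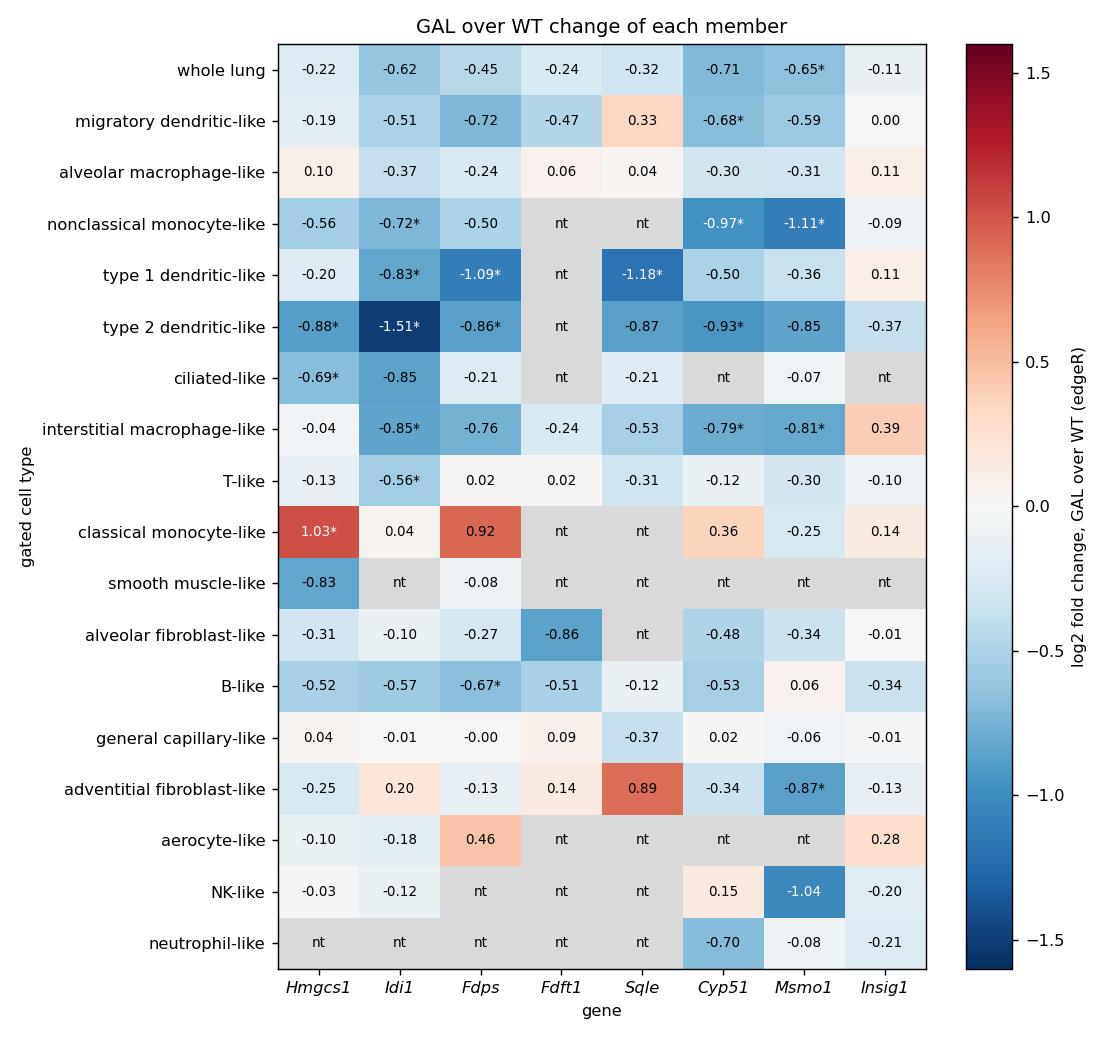
Log2 fold change of GAL over WT by edgeR (color) of each gene (columns) in the whole lung and each gate with a member tested (rows); stars mark an unadjusted p under 0.05 and "nt" a gene with too few counts. Most tiles of the dendritic, nonclassical monocyte and interstitial macrophage gates are blue (negative), with Idi1 in type 2 dendritic-like cells at -1.51, and none passed an adjusted p of 0.05.

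Whether the change in 1 type differed from the mean change in the other types was tested by an interaction term in edgeR with library as a block. Among the 6 types with the most cells 0 of 48 pairs of gene and type were called, against 0.00255% of all pairs, and 0 had an unadjusted p under 0.05. Over all 19 types, a set added after the data were seen, 0 of 152 pairs were called, against 0.00826% of all pairs, and 6 reached an unadjusted p under 0.05. The smallest p was that of Idi1 in type 2 dendritic-like cells, whose change lay 1.23 below that of the other types on the log2 scale (-1.23 ± 0.42, unadjusted p = 0.0045). DESeq2 was not run on this term.

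Other genes around the pathway gave no called gene in the whole lung either. Of the 14 further mevalonate and sterol enzymes 11 were negative, with a median of -0.18, and 5 lay apart below, against 16.4% of all genes. Without the alveolar type 2-like cells 5 of them lay apart below and 1 above. Of the 12 genes of SREBP control 7 were positive, with a median of 0.028, and Srebf2 had 52.2 and 57.1 CPM in GAL and 71.0 and 54.5 CPM in WT. Of the 12 fatty acid genes, targets of SREBP1, 10 were positive, with a median of 0.45; without the alveolar type 2-like cells 7 were positive and the median was 0.068. Among them the desaturase Fads2 had 19.95 and 10.1 CPM in GAL and 7.31 and 5.76 CPM in WT (1.15 ± 0.36), while the elongase Elovl6 had 19.97 and 13.1 CPM in GAL and 27.9 and 25.6 CPM in WT (-0.74 ± 0.23). The medians of sterol uptake and of LXR and efflux genes were -0.081 and 0.029, with Vldlr, a receptor for lipoproteins, at 22.9 and 10.5 CPM in GAL and 4.92 and 7.59 CPM in WT.

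Dividing cells build new membrane, and cells that passed a gate of 4 of 11 dividing markers were set against the other cells of the same gate, in a comparison added after the data were seen. In T-like cells 4 of 8 members were higher in dividing cells, against 18.9% of all genes tested, and 0 were lower, against 20.2%. Fdft1 averaged 20.5 ± 7.25 CPM in dividing cells and 6.10 ± 1.10 CPM in other cells (SD, n = 4 libraries), a log2 difference of 1.53 ± 0.34 (edgeR adjusted p = 0.000322). Fdps averaged 44.8 ± 12.8 CPM in dividing cells and 17.6 ± 1.53 CPM in other cells (1.16 ± 0.21), and Idi1 52.4 ± 10.7 CPM in dividing cells and 23.8 ± 5.48 CPM in other cells (0.95 ± 0.18). Sqle was higher by 1.06 ± 0.35, and each of these 4 genes was higher in dividing cells in all 4 libraries. Of 13 further mevalonate and sterol enzymes tested there, 7 were higher and 1 lower.

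In alveolar macrophage-like cells other members were called, and in the other direction. Idi1 (-0.18), Fdps (-0.19), Fdft1 (0.0025) and Sqle (-0.31), called higher in T-like cells, were not called here. Hmgcs1, Cyp51, Msmo1 and Insig1 were lower in dividing cells, against 16.7% of all genes, and 0 were higher, against 15.5%; without WT replicate 1 only 2 were called. Msmo1 averaged 38.97 ± 9.48 CPM in dividing cells and 54.7 ± 15.4 CPM in other cells (-0.60 ± 0.13, edgeR adjusted p = 8.4e-05), and Cyp51 58.7 ± 12.3 CPM in dividing cells and 76.4 ± 19.8 CPM in other cells (-0.47 ± 0.10). Fdft1 averaged 31.4 ± 8.28 CPM in dividing cells and 28.5 ± 7.57 CPM in other cells and did not pass. Whether the change differs between the T-like and alveolar macrophage-like gates was not tested. The dividing cells were 36 and 73 T-like cells in GAL and 103 and 31 in WT, and 71 and 51 alveolar macrophage-like cells in GAL and 100 and 70 in WT.

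**Figure D4:**
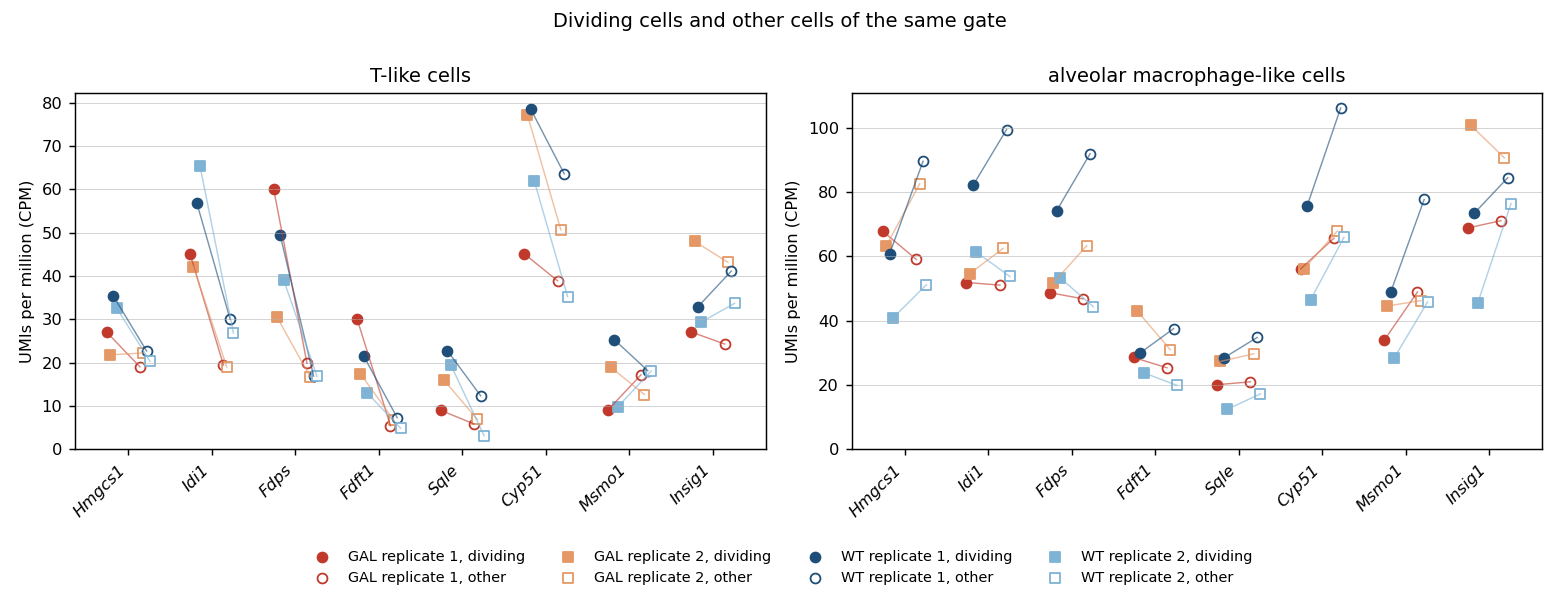
Level of each gene in CPM (y axis) in dividing cells (filled points, left) and other cells (open points, right) of the same gate, with a line per library, in T-like cells and alveolar macrophage-like cells. In T-like cells the lines of Idi1, Fdps, Fdft1 and Sqle run higher on the dividing side in all 4 libraries.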

How the data were processed

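Single cells of whole lungs of 2 GAL and 2 WT libraries were read with a SeekOne droplet kit, per the labels' protocols. The deposited matrices hold raw UMI counts per gene and cell barcode, of at least 500 UMIs per barcode. The submitters' processing notes name fastp, STAR, Seurat and the genome GRCm38 (mm10), without roles or versions; the counting annotation, and whether counting used strand, are not given in the sources used here.

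A barcode was kept if it had 300 genes or more, 500 UMIs or more and no more than 20% mitochondrial UMIs. Scrublet in scanpy 1.11.5 scored doublets, and the highest scores were removed up to 0.8% per 1000 cells, since the automatic threshold marked 0% of cells in GAL replicate 1 and at most 5.29% in a library. A cell entered a gate when it had at least 3 markers of a type and a score at least 1.5 times the next. Counts were summed per library and gate (types with at least 30 cells in every library) and tested with edgeR 4.0.16 (quasi-likelihood test, TMM, filterByExpr, Benjamini-Hochberg over all genes of a fit), with DESeq2 1.42.0 as an alternative, in R 4.3.3. Printed CPM are plain shares of the sum, scaled to 1000000 UMIs, while fold changes are from the TMM fits. The scripts were tested on simulated data. Libraries carry no stated replicate numbers and were numbered in accession order within a group. The members and lists were chosen with earlier results of these data known. The rule for named genes took the 8 members, the list genes with the smallest p, the 10 most alike genes and the 3 largest rises and falls among called genes. Some list genes named by it are not reported here. Promoter windows and gene positions are from RefSeq (GRCm38.p6) and GENCODE on GRCm38.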

Additional observations from a re-analysis of the deposited data

Results flagged for a closer look

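Between dividing cells and other cells of the same gate, Sqle and Cyp51 ran in opposite directions in 2 cell types, in every library. In T-like cells Sqle averaged 16.8 ± 5.90 CPM in dividing cells and 7.07 ± 3.86 CPM in other cells (SD, n = 4 libraries), a log2 difference of 1.06, and was higher in 4 of 4 libraries. In alveolar macrophage-like cells Sqle averaged 22.1 ± 7.39 CPM in dividing cells and 25.7 ± 8.01 CPM in other cells, a log2 difference of -0.31, and was lower in 4 of 4. Cyp51 stood at 65.7 ± 15.6 CPM in dividing T-like cells and 47.1 ± 12.8 CPM in the other T-like cells, a log2 difference of 0.32, and at -0.47 in alveolar macrophage-like cells, higher in dividing cells in 4 of 4 T-like sums and lower in 4 of 4 alveolar macrophage-like sums. By edgeR the adjusted p was 0.0152 for Sqle and 0.116 for Cyp51 in T-like cells, and 0.139 for Sqle and 0.00021 for Cyp51 in alveolar macrophage-like cells. The difference between the 2 cell types was not tested.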

How the results depend on the processing

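No member was called in the whole lung by edgeR or DESeq2, or with no filter on low counts. The same held with at most 10% mitochondrial UMIs, with no doublet removal, with cells thinned to 1000 UMIs and without dividing cells. It also held with equal numbers of cells of each type, and without alveolar type 2-like cells, an alternative chosen after seeing the data. Within types the number called, 0, was 2 with no filter on low counts. Fits of GAL against WT with a library left out have 1 library in a group, so their calls are not listed. With a library left out the median of the members tested ran from -0.81 to 0.034 in the whole lung, -0.30 to 0.047 in T-like, -0.66 to -0.28 in B-like, -0.92 to -0.13 in interstitial macrophage-like, -0.91 to -0.68 in nonclassical monocyte-like, -0.73 to -0.23 in type 1 dendritic-like and -0.79 to -0.21 in migratory dendritic-like cells. The type 1 dendritic-like median was -0.66 with no doublet removal, -1.95 with thinned cells and -0.67 without dividing cells, and the nonclassical monocyte-like median -1.01 with thinned cells. With thinned cells 1841 genes were tested in the type 1 dendritic-like gate, against 7566 in the main fit. In the nonclassical monocyte-like gate 2569 were tested, against 5335. How many members the medians with thinned cells rest on is not given. The pairs of gene and type called higher, 43, were 41 with no scaling beyond totals, 37 with stricter gates (17 types) and 39 to 42 with a library left out; 0 called pairs changed sign with no scaling. The pairs called lower, 50, were 39 with no scaling, of which 37 were shared. The dividing count of 4 lower in alveolar macrophage-like cells ran from 2 to 4. The causes were not tested.

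Of 846 single-gene values under an alternative, 759 kept direction and side of the threshold. A further 2, with no filter on low counts, passed it, and the rest that passed came from fits with 1 library in a group. Another 78 changed sign, 61 of them with a library left out, and none of the 78 was a called value. The other 17 were Hmgcs1 in interstitial macrophage-like cells (0.031 with DESeq2, 0.031 with stricter gates), Insig1 in migratory dendritic-like cells (-0.023 with DESeq2, -0.015 with no filter), Fdft1 in T-like cells (-0.00043), Insig1 in type 1 dendritic-like cells (-0.089) and Cyp51 in general capillary-like cells (-0.057) with no doublet removal, and Insig1 in type 1 dendritic-like cells without dividing cells (-0.075). With thinned cells they were Cyp51 in T-like (0.11) and migratory dendritic-like cells (0.43), Msmo1 in neutrophil-like cells (0.51) and Idi1 (0.30), Fdps (0.15) and Insig1 (0.059) in general capillary-like cells. With stricter gates they were Sqle in B-like cells (0.20) and Idi1 (0.13) and Insig1 (0.019) in general capillary-like cells. With a library left out, the lowest and highest log2 fold changes lay on different sides of 0 for these genes. In the whole lung they were Hmgcs1 (-0.55 to 0.17), Fdps (-0.83 to 0.046), Fdft1 (-0.64 to 0.28), Sqle (-0.78 to 0.34) and Insig1 (-0.33 to 0.059). In T-like cells they were Fdps (-0.13 to 0.16), Fdft1 (-0.30 to 0.44), Sqle (-0.94 to 0.76), Cyp51 (-0.44 to 0.29) and Insig1 (-0.58 to 0.26). In B-like cells they were Sqle (-0.53 to 0.21) and Msmo1 (-0.16 to 0.25). In alveolar macrophage-like cells they were Hmgcs1 (-0.28 to 0.60), Idi1 (-0.77 to 0.17), Fdps (-0.70 to 0.40), Fdft1 (-0.34 to 0.62), Sqle (-0.41 to 0.69), Cyp51 (-0.64 to 0.13), Msmo1 (-0.68 to 0.17) and Insig1 (-0.22 to 0.37). In interstitial macrophage-like cells they were Hmgcs1 (-0.65 to 1.76), Fdft1 (-0.77 to 0.077) and Sqle (-1.27 to 0.55). In type 1 dendritic-like cells they were Hmgcs1 (-0.40 to 0.15) and Insig1 (-0.18 to 0.31). In type 2 dendritic-like cells they were Insig1 (-0.86 to 0.28). In migratory dendritic-like cells they were Hmgcs1 (-0.66 to 0.35), Fdft1 (-0.85 to 0.066) and Insig1 (-0.29 to 0.14). In neutrophil-like cells they were Msmo1 (-0.52 to 0.14) and Insig1 (-0.68 to 0.39). In general capillary-like cells they were Hmgcs1 (-0.10 to 0.17), Idi1 (-0.55 to 0.32), Fdps (-0.45 to 0.63), Fdft1 (-0.040 to 0.25), Sqle (-1.11 to 0.23), Cyp51 (-0.34 to 0.25), Msmo1 (-0.23 to 0.18) and Insig1 (-0.35 to 0.25). No paired analysis was possible because the labels carry no replicate numbers shared between GAL and WT. Thinned type 2 dendritic-like cells gave no median. With 2 libraries a group, and 34 to 213 cells a library in the migratory dendritic-like gate, small counts limit the precision of the rarer gates.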
